A study of Mus musculus with 2 samples.

Results

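The 1000 strongest accessible regions away from annotated promoters were described in the left cerebral cortex of aged mice. The assay was DNase-seq: the nuclease DNase I cuts chromatin where DNA is free of nucleosomes, and sequencing of the cut ends maps these places. There was 1 group with 2 libraries of female B6CASTF1/J mice aged 18 to 20 months, a first-generation hybrid that carries a C57BL/6J and a CAST genome in every cell. No mouse was treated, no allele was modified and no other group was present. The labels number the libraries as biological replicates 1 and 2 and give both the same donor identifier, so it is not known whether they came from separate animals, and the spread between them may be technical. A whole piece of cortex mixes neurons, glia and vessel cells, so a strong peak in few cells and a weaker peak in many cells cannot be told apart.

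The regions were chosen by their signal, the authors' value for each peak, whose normalization is not stated. Of 132054 peaks in library 1, 128556 lay on chromosomes 1 to 19 and 86052 of these had their midpoint over 2 kb from every GENCODE M21 transcript start. Of these, 64450 overlapped a peak of library 2 by at least 1 base. These distal shared peaks were ranked by signal in library 1 and by the strongest overlapping peak in library 2, and the 1000 of best mean rank were taken. The other 63450 distal shared peaks are the background throughout. Signal, width, footprints and accessible length all come from the same reads as the ranking, so their values are given as a description without a test. Sequence did not enter the choice. Annotation entered it through the limit of 2 kb from GENCODE starts, which bears on the distances, places and nearest genes given below. The other distal peaks passed the same limit. Sequence and annotation are likewise given as counts, with exact binomial 95% intervals that cover the counting of regions only. Read numbers were not at hand, and the depth is therefore unknown. Peaks within 500 bases of a start of Slc17a7, Snap25, Gad1, Mbp and Gfap, which mark excitatory neurons, neurons in general, inhibitory neurons, oligodendrocytes and astrocytes, were found in both libraries with signals of 0.626 to 3.35. No such peak was found in either library at Alb, Myh6 or Krt5, which mark liver, heart and epidermis.

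Accessible sites away from promoters include enhancers, which bind transcription factors and act on a gene from a distance, and insulators bound by CTCF, a zinc finger protein that holds the ends of chromatin loops. A bound protein shields its DNA from DNase I and leaves a footprint, a short stretch of few cuts inside an accessible region. Genes for transfer RNAs form a further class of open sites. They are transcribed by RNA polymerase III from promoter elements inside the gene, the A and B boxes.

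The sequences below show regions with a CTCF core, tRNA genes and further regions of high rank. They were read from the RefSeq assembly GRCm38.p6, which has the coordinates of mm10. The regions of best mean rank with a CTCF core covered by a footprint in both libraries, and without a further copy in the assembly, come first. The core, CCNNNAGNNGGC, is in capitals, and each sequence is written on the strand on which the core reads in this direction.
In C87436, chr6:86472277-86472336, plus strand: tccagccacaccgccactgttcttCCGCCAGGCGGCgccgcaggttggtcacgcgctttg
Near Gnai2, chr9:107612811-107612870, minus strand: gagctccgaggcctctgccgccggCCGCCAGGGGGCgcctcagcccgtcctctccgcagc
In Nuak1, chr10:84438180-84438239, minus strand: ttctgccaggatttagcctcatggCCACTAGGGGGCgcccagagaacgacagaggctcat
Nearest to Chd2, chr7:73618491-73618550, minus strand: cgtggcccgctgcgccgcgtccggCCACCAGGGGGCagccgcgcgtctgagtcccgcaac
Near Stard10, chr7:101310766-101310825, plus strand: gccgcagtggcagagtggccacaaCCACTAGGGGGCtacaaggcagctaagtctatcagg
Near Sgca, chr11:94979067-94979126, plus strand: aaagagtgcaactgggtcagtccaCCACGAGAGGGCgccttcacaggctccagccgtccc

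The next set shows tRNA genes at the regions of best mean rank that hold the B box letters GGTTCGA in their window, written whole on the strand of the B box, which is in capitals. In the RefSeq names the capital after n-T is the amino acid and the small letters are the anticodon.
n-TTagt9, chr7:35234770-35234843, minus strand: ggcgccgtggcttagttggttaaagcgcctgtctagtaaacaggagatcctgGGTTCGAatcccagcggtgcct
n-TLcag4, chr8:94704004-94704086, minus strand: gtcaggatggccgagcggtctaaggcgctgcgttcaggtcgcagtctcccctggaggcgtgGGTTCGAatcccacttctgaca
n-THgtg4, chr2:122375494-122375565, minus strand: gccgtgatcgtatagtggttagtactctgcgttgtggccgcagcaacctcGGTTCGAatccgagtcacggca
n-TEttc6, chr14:76152774-76152845, plus strand: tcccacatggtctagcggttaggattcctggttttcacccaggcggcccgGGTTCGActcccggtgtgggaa

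The last set shows the remaining regions among the 10 of best mean rank without a further copy, as 120 bases around the longest stretch that lay in footprints of both libraries, on the plus strand. Capitals mark bases that lay in a footprint in both libraries, and the protected letters differ from region to region.
In Cers5, chr15:99735970-99736089: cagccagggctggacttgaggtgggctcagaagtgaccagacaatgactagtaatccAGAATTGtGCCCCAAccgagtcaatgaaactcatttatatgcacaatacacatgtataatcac
In Ubqln1, chr13:58177670-58177789: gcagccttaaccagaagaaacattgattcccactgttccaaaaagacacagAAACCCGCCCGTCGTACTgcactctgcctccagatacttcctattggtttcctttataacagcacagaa
Nearest to Ezh2, chr6:47650816-47650935: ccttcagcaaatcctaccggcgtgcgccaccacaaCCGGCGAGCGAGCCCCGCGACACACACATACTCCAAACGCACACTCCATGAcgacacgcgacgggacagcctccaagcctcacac
Near Map1lc3b, chr8:121585613-121585732: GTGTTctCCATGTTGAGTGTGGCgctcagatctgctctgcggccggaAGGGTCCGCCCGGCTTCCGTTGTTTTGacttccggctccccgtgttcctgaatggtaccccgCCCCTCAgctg
In 9330198N18Rik, chr2:30658639-30658758: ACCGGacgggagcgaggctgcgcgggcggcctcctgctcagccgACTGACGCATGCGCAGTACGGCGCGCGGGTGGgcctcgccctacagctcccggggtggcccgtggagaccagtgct
Nearest to Irf2bp2, chr8:126666491-126666610: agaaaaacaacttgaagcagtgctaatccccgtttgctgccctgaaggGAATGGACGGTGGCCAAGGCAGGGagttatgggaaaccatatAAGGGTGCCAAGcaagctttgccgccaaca
In Prdm2, chr4:143162252-143162371: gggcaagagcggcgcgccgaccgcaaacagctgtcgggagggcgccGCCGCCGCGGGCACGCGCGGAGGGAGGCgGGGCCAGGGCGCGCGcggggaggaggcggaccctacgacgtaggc
Nearest to Ptma, chr1:86487508-86487627: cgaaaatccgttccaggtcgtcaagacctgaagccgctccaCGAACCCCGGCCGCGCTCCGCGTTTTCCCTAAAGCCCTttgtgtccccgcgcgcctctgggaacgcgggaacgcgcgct
Near Trappc9, chr15:73067684-73067803: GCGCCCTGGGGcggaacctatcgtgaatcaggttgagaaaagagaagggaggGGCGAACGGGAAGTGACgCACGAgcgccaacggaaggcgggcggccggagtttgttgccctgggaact

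The strongest 1000 stood apart from the remaining distal peaks in signal, by construction. Their signal had a median of 3.72 in library 1 (lowest 2.65, highest 26.8) and 4.02 in library 2 (2.98 to 39.1). The other distal shared peaks had medians of 0.694 in library 1 and 0.715 in library 2. None of the 1000 differed by more than 2-fold between the libraries, with an upper bound of 0.368%, against a background of 2.04% over all distal shared peaks. The ranking used both signals, so nothing is read from this count. Past 1.5-fold the share was 1.8% of the 1000 and 16.7% of the other distal peaks.

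**Figure D1:**
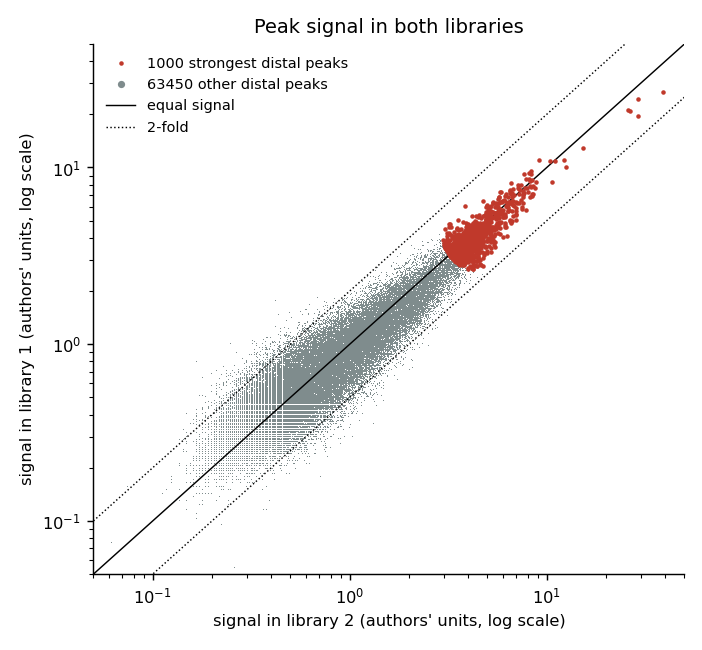
Signal of each distal shared peak in library 2 (x axis) and library 1 (y axis), both on log scales in the authors' units, with the 1000 strongest in red, the others in grey and dotted lines at 2-fold. All 1000 lie between the dotted lines, and 5 of them have a signal above 19 in both libraries.

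The limit of 1000 fell in a continuous range of signals. The regions just inside it, nearest to Zeb1, in Chrna1 and in Mylk2, had signals of 3.14, 2.8 and 2.84 in library 1 and 3.23, 3.64 and 3.58 in library 2. Those just outside, in Itga11, in Arhgef10 and nearest to Pigz, had 2.84, 2.97 and 3 in library 1 and 3.58, 3.38 and 3.35 in library 2. The regions in Mylk2 and Itga11 shared the same mean rank, and the order by chromosome and start decided between them.

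The 4 strongest regions of all were sequences present more than once in the assembly. The first lay in exonic sequence of Lars2 (chromosome 9, 123461901 to 123462120), whose enzyme loads leucine onto tRNA in mitochondria, with a signal of 26.8 in library 1 and 39.1 in library 2 and 7 further copies. A copy here is a match with identity of 90% or above that spans 50% or more of the peak's length. The second lay outside genes on chromosome 3 (5860361 to 5860530), with 24.4 and 29.1 and 19 copies. The third lay 21.6 kb from Igf2bp3, an RNA-binding protein (21 and 26.6, 3 copies), and the fourth in an intron of Il31ra, an interleukin receptor subunit (19.5 and 29, 16 copies). Of the first 8 regions 5 had a copy, the last in an intron of Gphn, which encodes the synaptic scaffold gephyrin (10.1 and 12.5, 4 copies). Library 2 had the higher signal in all 5. Over all 1000 regions library 1 had the higher signal in only 31.5%, so nothing is read from this. The regions at ranks 9 and 10 had no further copy.

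Over the whole set a copy was rare. It was found for 8 of the first 100 regions and for 30 of the 1000 (3%, interval 2.03 to 4.26%). Of the next 1000 distal peaks 23 had one, and of every 60th peak after those 27 of 1041 (2.59%). Reads from such copies can be placed at more than 1 site, how the authors placed them is not stated, and the part of this in the signal was not tested.

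Regions without a further copy, as defined above, stood among these from rank 5 on. The strongest lay in an exon of Cers5, a ceramide synthase (chromosome 15, 99735641 to 99736060), with signals of 21.2 in library 1 and 25.8 in library 2 over 420 bases. The next lay in an exon of Ubqln1, a ubiquitin-binding protein (chromosome 13, 58177621 to 58177820; 12.9 and 15.2). Another lay 55.5 kb from Ezh2, the histone methyltransferase of the Polycomb group (chromosome 6, 47650761 to 47651000; 11 and 12.3). The region in exonic sequence within both C87436 and A430078I02Rik, in an exon of at least 1 of them (chromosome 6, 86472201 to 86472480), had 10.9 and 11. The region 4.77 kb from Map1lc3b, an autophagy protein, had 11 and 9.17. The remaining 5 of the 10, in 9330198N18Rik, in Prdm2 and nearest to Irf2bp2, Ptma and Trappc9, had signals of 8.25 to 10.9 in library 1 and 8.33 to 10.4 in library 2. The libraries differed by at most 0.29 on the log2 scale in all 10, and library 2 was the higher in 5 of them.

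Not every region called distal was free of a transcript start when a second annotation was read. RefSeq placed a start within 500 bases of 98 of the 1000 (9.8%, interval 8.03 to 11.8%) and of 2.20% of the other distal peaks. Of the 98, 54 were tRNA genes, 27 long noncoding RNAs and 17 messenger RNAs. Of the next 1000 peaks 6.4% had a RefSeq start within 500 bases. At tRNA genes the share was 5.4% of the 1000 and 2.1% of the next 1000. At starts of other kinds it was 4.4% and 4.3%, so these were not particular to the set. The region in Prdm2, a histone methyltransferase gene, lay at such an mRNA start (8.25 and 8.77), as did that near Kcnn1, a potassium channel (7.87 and 8.5). The middle of the region nearest to Ezh2 lay 423 bases from the start of the noncoding RNA Gm40371, which was thus outside the peak. The GENCODE release used for the rule lists no tRNA genes on these chromosomes, and the label "away from promoters" therefore holds for GENCODE starts and not for these 98. RefSeq was read only once the data had been seen.

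Genes for tRNAs took up 5.4% of the strongest 1000 (54 regions, interval 4.08 to 6.99%) and 0.233% of the other distal peaks. Of all 202 distal shared peaks at tRNA genes, 26.7% were among the 1000. The 54 belonged to 52 of the 391 tRNA genes that RefSeq lists on chromosomes 1 to 19, counting the nearest start of each peak only. Any distal shared peak was found at 172 of the 391. In rank the 54 regions were spread through the set, with 10 among the first 100 and 10 among ranks 601 to 700. The strongest lay at n-TRccg1, an arginine tRNA (chromosome 11, 107012681 to 107012960), with signals of 7.68 in library 1 and 8.72 in library 2. It was followed by the leucine tRNA n-TLcaa3 (6.83 and 8.22), the threonine tRNA n-TTcgt5 (7.46 and 7.35) and the asparagine tRNA n-TNgtt14 (7.08 and 7.6). The 54 regions served 17 amino acids by these names, leucine most often with 8 and threonine next with 6. Chromosome 13 held 13 of them and chromosome 11 held 12. How all 391 tRNA genes divide among amino acids and chromosomes is not given here, so no preference is read from these counts. The megabase of chromosome 13 from 21000001 to 22000000 held 10 of the 1000 regions, the most of any megabase counted from the chromosome's start, and 8 of these lay at tRNA genes. The B box letters stood in the 200-base window of 30 of the 54, and in 5 of the other 946 regions. The same letters stood in 50% of the 148 other distal peaks at tRNA genes.

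Regions at tRNA genes and at other RefSeq starts lay in longer open stretches than the rest of the set. The uninterrupted run of bases with a false discovery rate under 0.05 through the peak's middle had a median of 1028 bases in library 1 and 1154 in library 2 at tRNA genes, and of 855 and 957.5 bases at other RefSeq starts. At regions with a CTCF core and no RefSeq start it was 421 and 478.5 bases, and over all 1000 it was 535.5 and 591 bases. The other distal peaks had medians of 270 and 280 bases over all and 572 and 618.5 bases at tRNA genes. The peaks themselves were narrow, with a median width of 210 bases among the 1000 in library 1 (60 to 580) and 200 bases among the other distal peaks.

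A CTCF core stood in the 200-base window around the midpoint of 326 of the 1000 regions (32.6%, interval 29.7 to 35.6%). It stood in 14.7% of the other distal peaks and in 3.7% of 2000 windows placed 2 kb to either side of the 1000. A stricter consensus, with further fixed positions around the core, was found in 13.1%, 4.95% and 0.2%, and in 17.5% of the next 1000 peaks. By rank the share was not highest at the top. It was 23% among the first 100 regions, 25 to 39% in later groups of 100 within the set, 34.7% in ranks 1001 to 2000, 23.4% in ranks 5001 to 20000 and 10.1% beyond. Within the set, 29 regions held 2 or more cores (2.9%), against 2.3% of the next 1000 peaks and 0.504% of all other distal peaks. Neither a core nor a RefSeq start within 500 bases was found for 588 of the 1000 (58.8%) and for 83.4% of the other distal peaks.

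**Figure D2:**
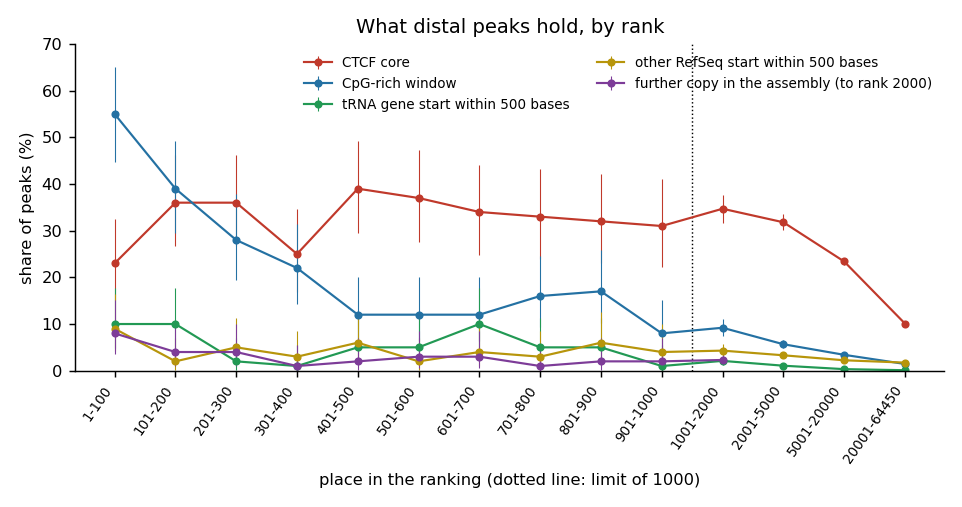
Share of distal shared peaks (y axis, %) with each feature, in groups along the ranking (x axis, rank 1 strongest), with exact binomial 95% intervals as bars. The CpG-rich share is 55% in the first 100 and 8% in ranks 901 to 1000, while the CTCF core share stays between 23% and 39% within the 1000.

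Most CTCF cores of the strongest regions lay in a footprint, less often at the very top of the ranking than further down. A footprint covered at least 6 of the 12 bases in both libraries for 294 of the 326 cores (90.2%, interval 86.4 to 93.2%), against 67.9% of the 9311 cores in other distal peaks. The share among the next 1000 peaks, 91.6%, was close to that of the set. Within the set it was 14 of 23 cores in ranks 1 to 100 (60.9%, interval 38.5 to 80.3%), 94.9% of 136 in ranks 101 to 500 and 90.4% of 167 in ranks 501 to 1000, groups formed after the data had been seen. All 12 bases were covered in both libraries in 84.4% of cores in the 1000, 88.8% in the next 1000 and 53.3% in all other distal peaks. The 6 regions whose sequences are shown above were picked for a covered core. Of these, that in C87436 had signals of 10.9 in library 1 and 11 in library 2, that near Gnai2, a G protein subunit, 7.8 and 8.34, and that in Nuak1, a kinase, 7.89 and 8.22. Those nearest to Chd2, a chromatin remodeller, Stard10, a lipid transfer protein, and Sgca, a muscle sarcoglycan, had 6.51, 7.51 and 6.29 in library 1 and 7.42, 6.49 and 7.55 in library 2. They are 6 of the first 11 cores by rank, and the other 5 fell short. The core at Map1lc3b had 5 bases covered in library 1 and 0 in library 2, that nearest to Hlf had 10 and 2, and those in 9330198N18Rik and nearest to Ccne1 and Gm20479 had 0 in both. Footprints come from the same cuts as the signal, which differs between these groups of peaks, and its part in this contrast was not tested.

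Footprints at these cores were not symmetric. With every core turned to read CCNNNAGNNGGC, coverage among the 1000 was 90.8% in library 1 and 92.3% in library 2 at the middle of the core. It was still 73.9% and 78.5% at 15 bases downstream and 4.60% in both at 25 bases downstream. Upstream it stood at 54.9% and 49.7% at 13 bases before the middle, at 56.1% and 57.1% at 20 bases, and at 17.8% in both at 30 bases. Cores in other distal peaks had the same outline at a lower level, with 33.8% and 37.2% at 20 bases upstream. The footprint over the core had a median length of 33 bases in library 1 and 32 in library 2 among the 1000, and 27 and 29 bases among the others.

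**Figure D3:**
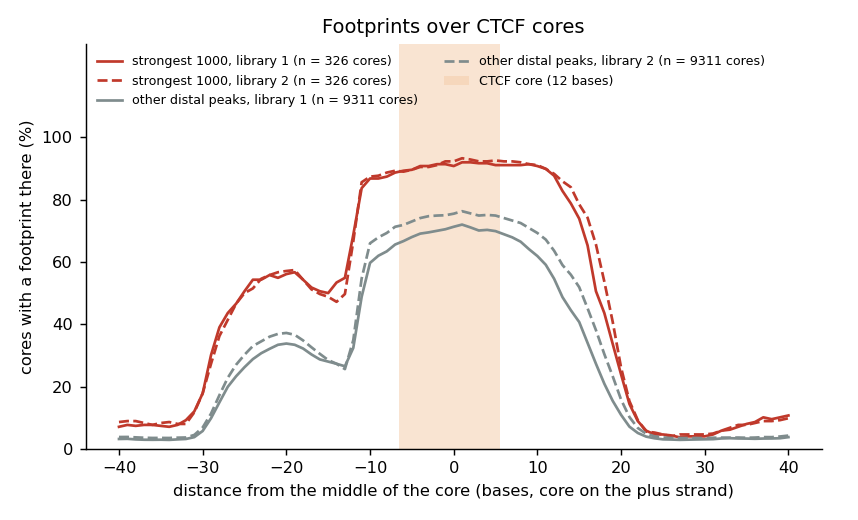
Share of CTCF cores (y axis, %) lying in a footprint at each distance from the middle of the core (x axis, bases), for the strongest 1000 in red and other distal peaks in grey, library 1 solid and library 2 dashed, the core shaded. Both libraries show the plateau over the core and a shoulder around 20 bases upstream, at 56.1% and 57.1% among the strongest 1000.

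Cores lay on both strands, with 157 of 326 (48.2%) on the plus strand. Of 307 neighbouring pairs of cores in the set along a chromosome, 71 pointed towards each other, 71 away from each other and 165 the same way. The median distance between neighbours was 3050 kb.

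Regions with a CTCF core were more often higher in library 2, inside and outside the set, and CpG-rich peaks outside the set were too. On the log2 scale, library 1 over library 2 stood at a median of -0.20 (SD 0.20 over regions) at the 326 regions with a core and -0.06 (SD 0.22) at the 674 without. Only 19% of the regions with a core had the higher signal in library 1, against 37.5% of those without. Among the other distal peaks these shares were 30.8% with a core and 46.9% without. At CpG-rich windows the median was -0.11 in the set, with 29% higher in library 1, and -0.28 in the other distal peaks, with 22.3%. At the tRNA genes of the set 27 of 54 were higher in library 1. With 1 library on each side there was no replicate for this difference, and it describes these libraries alone.

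The strongest regions were richer in G and C, and this was most marked at the top. The median share of G and C in the window was 56.5% among the 1000 and 49.5% among the other distal peaks. A CpG-rich window, with G and C above 55% and a ratio of observed to expected CpG above 0.6, was found in 221 of the 1000 (22.1%, interval 19.6 to 24.8%) and in 2.23% of the others. It was found in 55 of the first 100 regions, 39 of ranks 101 to 200 and 8 of ranks 901 to 1000. CpG-rich windows resemble CpG islands, which mark most promoters of broadly used genes. With RefSeq starts left out the shares were 20.2% of 902 regions and 2.06% of the other distal peaks. The unmethylated state of such windows was not measured.

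Consensus letters of some factors that bind CpG-rich promoters were several times as frequent as in other distal peaks. The letters of SP factors, GGGCGGGG, stood in 7.2% of the 1000 and 1.69% of the other distal peaks. Those of NRF1, a regulator of mitochondrial genes (GCGCNNGCGC), stood in 4.5% and 0.419%. ETS letters (CCGGAAGT) stood in 1.5% and 0.251%, those of EGR factors (GCGTGGGCG) in 1.8% and 0.181%, and those of ZNF143, a zinc finger factor of promoters (ACTACANNNCCC), in 1.2% and 0.2%. Among CpG-rich windows alone, SP letters stood in 19.9% of 221 regions and 11.2% of 1414 others, and NRF1 letters in 15.8% and 7.57%.

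The cyclic AMP response element TGACGTCA, to which CREB binds, was concentrated at the very top. It stood in 19 of the 1000 (1.9%, interval 1.15 to 2.95%), of which 11 were among the first 100, and in 0.372% of the other distal peaks. SP and NRF1 letters were also most frequent at the top, in 22 and 14 of the first 100. Among CpG-rich windows alone the response element stood in 3.62% of 221 regions and 1.49% of 1414 others. In the remaining windows it stood in 1.41% and 0.347%. The regions described here were chosen after their values were seen, and not by rank. Among the 11 in the first 100, 1 lay in an intron of Itpkb, a kinase of inositol phosphates (6.96 in library 1 and 7.54 in library 2). Outside genes, 1 lay 3.91 kb from Mef2d, a transcription factor of neurons and muscle (5.96 and 6.33). Another lay 37.4 kb from Pde10a, a phosphodiesterase of cyclic nucleotides (6.27 and 5.72). The rest of the 11 lay in C87436 and nearest to Gnai2, Tmem120b, Tex44, Tle2, Rabepk, Shf and Klrb1c. The first of these by rank, in C87436, had 10.9 and 11, and that nearest to Shf lay at a histidine tRNA gene. Further down the ranking 1 lay in an intron of Pde4d, a phosphodiesterase of cyclic AMP (4.29 and 4.77).

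Letters of the remaining factors, among them factors known for enhancers of brain cells, gave a mixed picture. AP-1 (TGANTCA), bound by Fos and Jun dimers, stood in 8.7% of the 1000 (interval 7.03 to 10.6%) and 15.5% of the other distal peaks, and in 6.85% of the windows 2 kb away. The proneural E-box (CAGATGG) stood in 12% and 13.2%, MEF2 (CTANNNNTAG) in 2.1% and 3.48%, T-box letters (AGGTGTGA) in 0.5% and 1.15% and homeodomain letters (TAATTA) in 1.6% and 3.72%. SOX (ACAAAGG), ROR (TAGGTCA), the octamer (ATGCAAAT) and YY1 (AAGATGGC) stood in 2.9%, 0.9%, 1.4% and 1.5% of the 1000 and in 3.91%, 1.19%, 1.62% and 1.28% of the others. RFX (GTTNCNNNGNNAAC) and NFI (TGGCNNNNNGCCA), both common in astrocytes and neurons, stood in 2.7% and 3.9% of the 1000 and in 1.57% and 2.07% of the others. The letters of REST, a silencer of neuronal genes (AGCACCNNGGACAG), stood in none of the 1000 and in 15 of the 63450 others. All letters were searched on both strands, matches of different consensus may overlap, and a match is not a measured site.

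**Figure D4:**
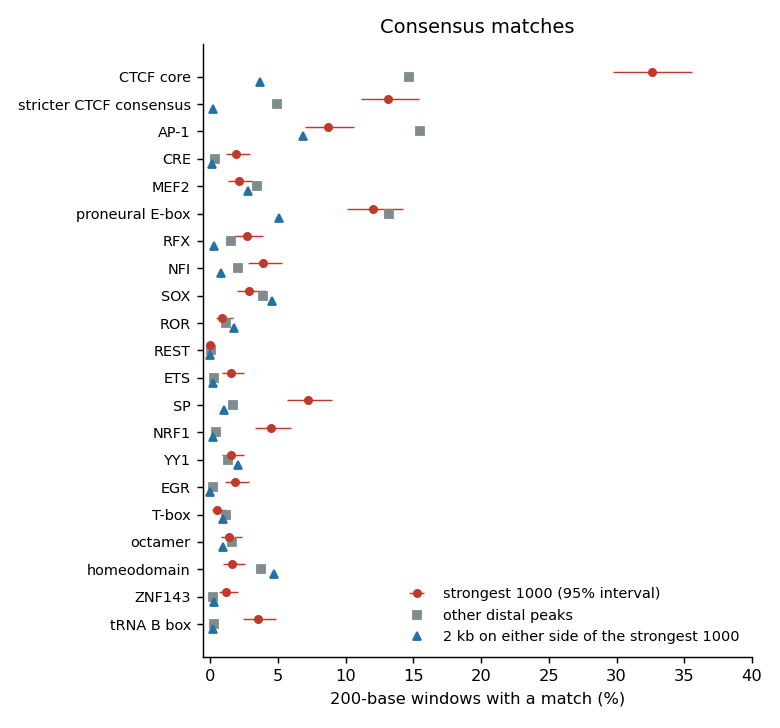
Share of 200-base windows with a match (x axis, %) for each consensus (y axis), in the strongest 1000 (red, with exact binomial 95% intervals), the other distal peaks (grey) and windows 2 kb to either side of the strongest 1000 (blue). The CTCF core stands furthest apart at 32.6%, 14.7% and 3.7%, and AP-1 stands at 8.7%, 15.5% and 6.85%.

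Short words counted without any list of factors gave mostly letters of the CTCF and SP kind. The 8-letter word with the largest excess was CAGGGGGC, within many CTCF cores, in 86 of the 1000 windows (8.6%) and 2.57% of the others. Next came CCCCGCCC, the other strand of the SP letters, with 7.2% and 1.69%, and AGGGGGCG with 7.6% and 2.15%. The remaining 7 of the 10, among them GCCCCGCC (6.3% and 1.01%) and GCGCCACC (5.6% and 1.73%), stood in 5.6 to 6.8% of the 1000. In the 674 regions without a CTCF core, GCATGCGC stood in 4.75%, against 0.667% of all other distal peaks, beside words of the SP kind.

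The strongest regions lay somewhat nearer to genes than other distal peaks but were less often inside them. Their midpoint was outside genes in 54.8% (interval 51.7 to 57.9%), in an intron in 38.6% and in an exon in 6.6%, against 45.2%, 49.7% and 5.11% of the other distal peaks. The nearest start of a protein-coding gene was at a median of 15294 bases, against 31287 bases. Among the next 1000 peaks the median was 18127 bases and 49.3% lay outside genes, closer to the set in distance than all other distal peaks. Of the 1000, 278 lay between 2 and 5 kb from a GENCODE start and 73 over 50 kb from every start. Within 10 kb of another of the set lay 118. The same counts for other distal peaks are not given here, so no preference is read from these. By chromosome the 1000 made up 1.17% (chromosome 16) to 1.96% (chromosome 11) of distal shared peaks. The window was repeat-masked over more than 50% of its length in 6 of the 1000 (0.6%) and in 2.33% of the others.

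Of 13 gene lists, each of 12 genes, the immediate early genes had the most of these regions, and genes that define cortical cell types had about the share of distal peaks in general. A region was given to the protein-coding gene of the nearest start, which need not be the gene it acts on. The 9 lists of cortical cell types and responses received 20 of the 1000 (2%, interval 1.23 to 3.07%), against 1.10% of the other distal peaks. They also received 20 of the next 1000 peaks, so this share was not particular to the set. The 7 cell type lists alone received 10 (1%) and 0.887% of the others, so that 1.75% of their 573 distal peaks were in the set, where 1.55% of all distal shared peaks were. Immediate early genes, the rapid transcriptional response of active neurons, received 8 of the 1000 (0.8%) and 0.110% of the others, and 10.3% of their 78 distal peaks were in the set. These 8 fell to 5 genes, Fos, Fosb, Npas4, Nr4a1 and Egr3, and apart from the region of best rank at Fos they were chosen after their values were seen.

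Fos, which encodes a subunit of AP-1, had 2 of them. The region 18.4 kb upstream of the nearest Fos start (chromosome 12, 85455361 to 85455620) had signals of 6.31 in library 1 and 5.53 in library 2, and that 11.2 kb downstream of the nearest start (85485981 to 85486240) had 4.74 and 5.53. Both were above every other peak within 45 kb of the gene's start in both libraries, the start itself included, where the strongest peak had 2.79 and 3. Npas4, an activity-induced transcription factor of neurons, had regions 11.6 kb (5.77 and 5.04) and 12 kb (3.10 and 3.32) from its start, which lay beside each other. Nr4a1, an orphan nuclear receptor, had regions at 7.78 kb (5.35 and 5.21) and 13.4 kb (4.58 and 3.96). The region at Fosb, 10.1 kb away, had 4.21 and 5.46, and that at Egr3, 2.18 kb away, had 4.24 and 4.62. None of the 8 held a CTCF core.

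**Figure D5:**
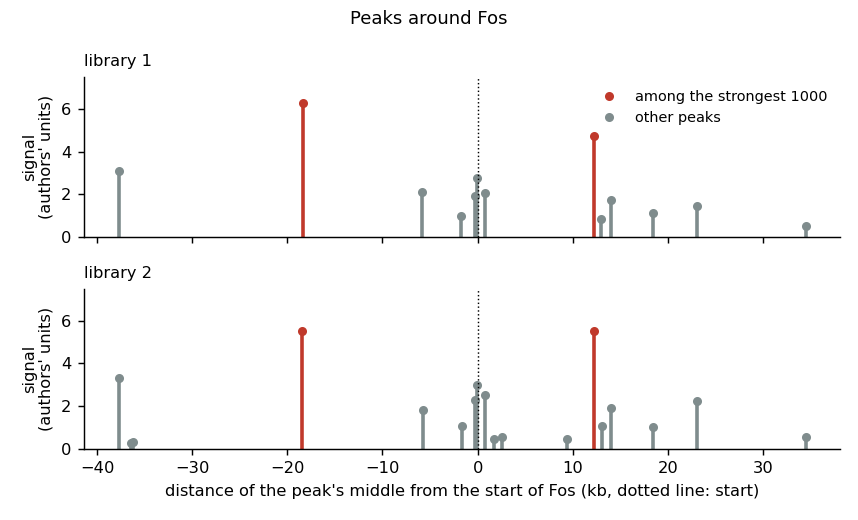
Signal (y axis, authors' units) of every peak within 45 kb of the start of Fos, by the distance of its middle from the start of the gene model (x axis, kb, upstream to the left), in library 1 and library 2. The peaks in red, 18.4 kb upstream and 12.2 kb downstream in library 1, belong to the strongest 1000 and are the tallest in both panels.

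Among the other lists the clock genes had the strongest single region, 8.18 kb from Nr1d1, a repressor of the circadian clock, with 7.69 in library 1 and 7.97 in library 2. A region 36.1 kb from Cry1 had 3.23 and 3.48. Oligodendrocyte genes had 3 regions, the strongest 5.34 kb from Mog, a myelin protein (4.25 and 4.16), and the other 2 in introns of Mbp, myelin basic protein (3.37 and 4, and 2.81 and 3.75). The best regions of the excitatory neuron list, near the synaptic kinase Camk2a (3.06 and 3.71), of the pan-neuronal list, nearest to Celf4 (3.24 and 3.59), and of the astrocyte list, in Aldh1l1, a folate enzyme (2.94 and 3.91), stood at ranks 810, 764 and 808. The region nearest to Celf4 lay 261 kb from its start and held a CTCF core that was wholly covered in both libraries. That of the endothelial and mural list, in Pdgfrb, a receptor of pericytes (2.97 and 3.44), stood at rank 970, and that of microglia, in Spi1, a myeloid transcription factor (3.09 and 4.21), at rank 651. The lists of inhibitory neurons, imprinted genes and muscle had none, among 61, 50 and 26 distal peaks. At the 1.55% of all distal shared peaks that were in the set, lists of this size would hold about 1 or none. The control list of liver genes had 1, in an intron of Hnf4a (2.99 and 3.66). These counts are too small to order the other lists.

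Footprints were present in both libraries in 999 of the 1000 regions (99.9%, interval 99.4 to 100%), in 999 of the next 1000 peaks, and in 75.9% of all other distal peaks. The exception among the strongest 1000, in an intron of Tenm4 (2.94 in library 1 and 4.35 in library 2), had none in library 2. The median number per peak was 4 in both libraries among the 1000 and 2 in both among the others.

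Differences between the libraries are given as a description, since the ranking used both signals. The largest log2 ratios of library 1 over library 2 were 0.64 near Zfp869 (6.02 and 3.86), 0.57 near Zfp184 at the aspartate tRNA gene n-TDgtc12 (4.76 and 3.21) and 0.56 near Trim7 at the valine tRNA gene n-TVaac7 (4.78 and 3.24). The lowest were -0.77 at the region nearest to Zdhhc25, 352 kb away (2.78 and 4.74), -0.71 near Sdhaf1 (2.82 and 4.63) and -0.68 near Gp1bb (2.86 and 4.57). The region near Sdhaf1 held a CTCF core that was wholly covered in both libraries.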

How the data were processed

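Peak lists, footprint lists and per-base tables of 2 libraries were used, all on mm10 and derived per library, per the deposited readme files. The normalization of the signal that the authors gave each peak is not stated. Aligner, caller and the treatment of CAST alleles and of reads matching several sites were not stated in the files or labels used. The authors' per-base tables give q-values and list only those under 0.05, and every deposited footprint carries the q-value 0.01. The longer peak list was used. Sequence windows of 200 bases around peak midpoints came from GRCm38.p6, transcript starts and genes from GENCODE M21, and a second set of starts from RefSeq. Of several cores in a window the one nearest the middle was used. Copies were sought with blastn 2.17.0 in the first 2000 peaks of each ranking and every 60th later one. Python 3.11.15, numpy 2.4.6, pandas 2.3.3, scipy 1.17.1, matplotlib 3.10.9 and pysam 0.24.0 were used.

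The members, gene lists and motifs were chosen with earlier results of these data known, and no test was made. Named regions are the 10 of best mean rank, the 10 of best mean rank without a copy, the 6 each of best mean rank with a covered core and without a core, the best of each gene list, the 3 of largest ratio in each direction and the 3 on each side of the limit; regions at tRNA genes, other RefSeq starts, response elements and single features outside this rule were chosen after their values were seen. An item that this rule takes is not reported here. The search for cores and the matching of peaks were tested on simulated data.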

Additional observations from a re-analysis of the deposited data

How the results depend on the processing

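Alternatives changed the ranking (either library alone), the distance to starts, the overlap, the peak list, the number of regions, copies, windows and definitions, and gave 121 values, of which 105 stayed within 1.5 times of the reported share or within the SD between libraries of the reported median, or, for the share of 0 past 2-fold, under the 0.3% that a count of 0 in 1000 allows. Those on RefSeq starts, tRNA genes, orientation and 8-letter words were chosen after seeing the data. The CTCF core share of 32.6% was 13.1% with the stricter consensus. Regions with a copy were 1.3% in place of 3% at an identity of 95% over 80% of the peak. Regions past the fold were 1.8% at 1.5-fold in place of 0 at 2-fold, and 0.1% at 2-fold ranked by library 2 alone. Regions near cortex list genes were 4.6% in place of 2% when any start within 100 kb counted. The median width of 210 bases was 200 over 5 kb from starts, with the 50% overlap and with 2000 regions, and 220 with 500 regions and without copies; ranked by a single library it was 200 to 220. The median share of G and C of 56.5% was 55.5% over 5 kb from starts, 56% with the 50% overlap, 57.5% with 500 regions and 55% with 2000 regions, and 55.5 to 56.5% ranked by a single library. Of the 1000 regions, 866 were also taken by library 2 alone and 855 by library 1 alone. No paired analysis was possible because there is 1 group. Depth is unknown, so it is not known how many weaker sites escaped detection.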
